A study of Mus musculus with 3 samples.

Results

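DNA repair genes, grouped by the pathway they serve, were followed in LSK cells, the Lin-, Sca-1+, Kit+ fraction of mouse haematopoietic cells that holds blood stem cells and multipotent progenitors. The group was a list of 41 genes of homologous recombination, end joining, mismatch repair, base excision, nucleotide excision, the Fanconi anaemia pathway, damage signalling and direct reversal. Each gene was read from its brightest single-gene probe set by the mean of the 3 arrays. The platform annotation named 40 of the 41, out of 18194 named genes in all, and no probe set carried the name Xrcc2. There was 1 Affymetrix array for each genotype: WT cells, cells in which p53 was knocked out (p53 KO), and cells in which both p53 and Mef were knocked out (DKO). Mef is an ETS transcription factor, and p53 is the damage-responsive factor whose absence both knockout samples share. Age, strain, treatment, the number of animals and the design of the knockout alleles are not given in the sources used here. Set side by side, the arrays ask how repair genes stand without p53, and how they stand once Mef is missing too.

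Cells meet different kinds of damage with different machines. Double-strand breaks are either copied from the sister chromatid by homologous recombination, which works in S and G2 phase, or rejoined directly by end joining, which works throughout the cycle. Base excision removes small damaged bases, nucleotide excision cuts out bulky lesions, mismatch repair corrects copying errors, and the Fanconi proteins unhook crosslinks between strands. Blood stem cells are known to depend on these routes, and inherited loss of the Fanconi pathway causes marrow failure.

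There were no replicates, so each difference is between a pair of arrays, carries no error and was not tested. Array number limits the precision. The 3 comparisons share arrays, and each is given for its own values. A difference is the log2 signal on the array named before "against" minus that on the array named after it, with signals under the floor of 110.4, the median of all signals, first raised to it. In bulk samples, fewer cells of a type and less RNA per cell cannot be told apart. Median signal over 45101 probe sets was 98.0 on WT, 105 on p53 KO and 129 on DKO. Quantile normalization and cyclic loess, which remove that offset, changed the share of higher genes among all genes at least 1.5-fold apart from 64.3% to 53% and 50.4% for DKO against WT. For DKO against p53 KO cyclic loess changed it from 58.3% to 44.1%, and the median of all measured genes from 0.11 to 0.01. Among genes at least 2-fold apart the share went from 62.8% to 49.4% and 47.0% for DKO against WT, and with cyclic loess from 40.9% to 26.5% for DKO against p53 KO. Kit, the receptor that defines the sort, was bright throughout at 4996 on WT, 2522 on p53 KO and 4873 on DKO, and the 5 T cell markers were mostly under the floor, with 1, 2 and 0 of them over it on WT, p53 KO and DKO. Those over it were Cd8a at 254 on WT and 284 on p53 KO, and Cd3d at 217 on p53 KO. The Sca-1 gene Ly6a is unnamed in the annotation used here. Genes of granulocytes were bright on every array despite the lineage gate, S100a8 at 32242 on WT, 40616 on p53 KO and 25471 on DKO.

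All 40 named repair genes reached the floor on at least 1 array and 36 did so on all 3. The exceptions were Ogg1, Xpa, Ercc2 and Mgmt. Of the 40, 21 (52.5%) stayed within 1.5-fold in every comparison, close to the 51.5% of all measured genes that did. None was 3-fold apart in any comparison, where 4.87% of all measured genes were.

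The p53 KO array read higher than WT for Brca1, Fanci, Fancl, Xrcc4 and Lig4, and lower for Xrcc3, Xrcc5, Atr, Apex1, Lig3 and Rad52. These 5 repair genes were at least 1.5-fold higher, where 15.4% of 12597 measured genes were, and these 6 were at least 1.5-fold lower, where 12.5% of measured genes were. As shares of the 40 these are 12.5% and 15.0%, close to the background in both directions. At 2-fold, 0 were higher and 2 lower, against backgrounds of 6.51% and 3.19%. The median over the repair genes was -0.14 beside 0 over all measured genes, with 27 lower and 11 higher.

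The DKO array read higher than WT for Xpc, Trp53bp1 and Fancc, and lower for Xrcc5, Ercc2 and Wrn. That is 3 repair genes at least 1.5-fold higher and 3 lower, or 7.50% in each direction, where 17.1% and 9.52% of all measured genes were. None was 2-fold apart, with backgrounds of 5.22% higher and 3.10% lower. Here 26 of 40 were lower and the median was -0.15, beside 0.07 over all measured genes. The smaller share of higher repair genes is read on a scale where all genes lean upward. With quantile normalization or cyclic loess the list median was -0.20 or -0.21 beside 0 over all genes.

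Between the p53-null arrays, DKO read higher for Xrcc3, Parp1, Xpc, Apex1, Fancc, Ung and Trp53bp1, and lower for Fancl, Brca1, Fancd2, Fanci, Xrcc4 and Ercc2. So for DKO against p53 KO 7 were at least 1.5-fold higher (17.5% of 40, background 17.0%) and 6 lower (15.0%, background 12.2%). At 2-fold 1 gene was on each side, where 4.10% of all genes were higher and 5.93% lower. The list median of 0.11 was that of all measured genes, 0.11, and with cyclic loess the 2 medians were 0.02 and 0.01. Repair genes as a whole lay near the background in this comparison, and the genes apart are described by pathway.

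**Figure D1:**
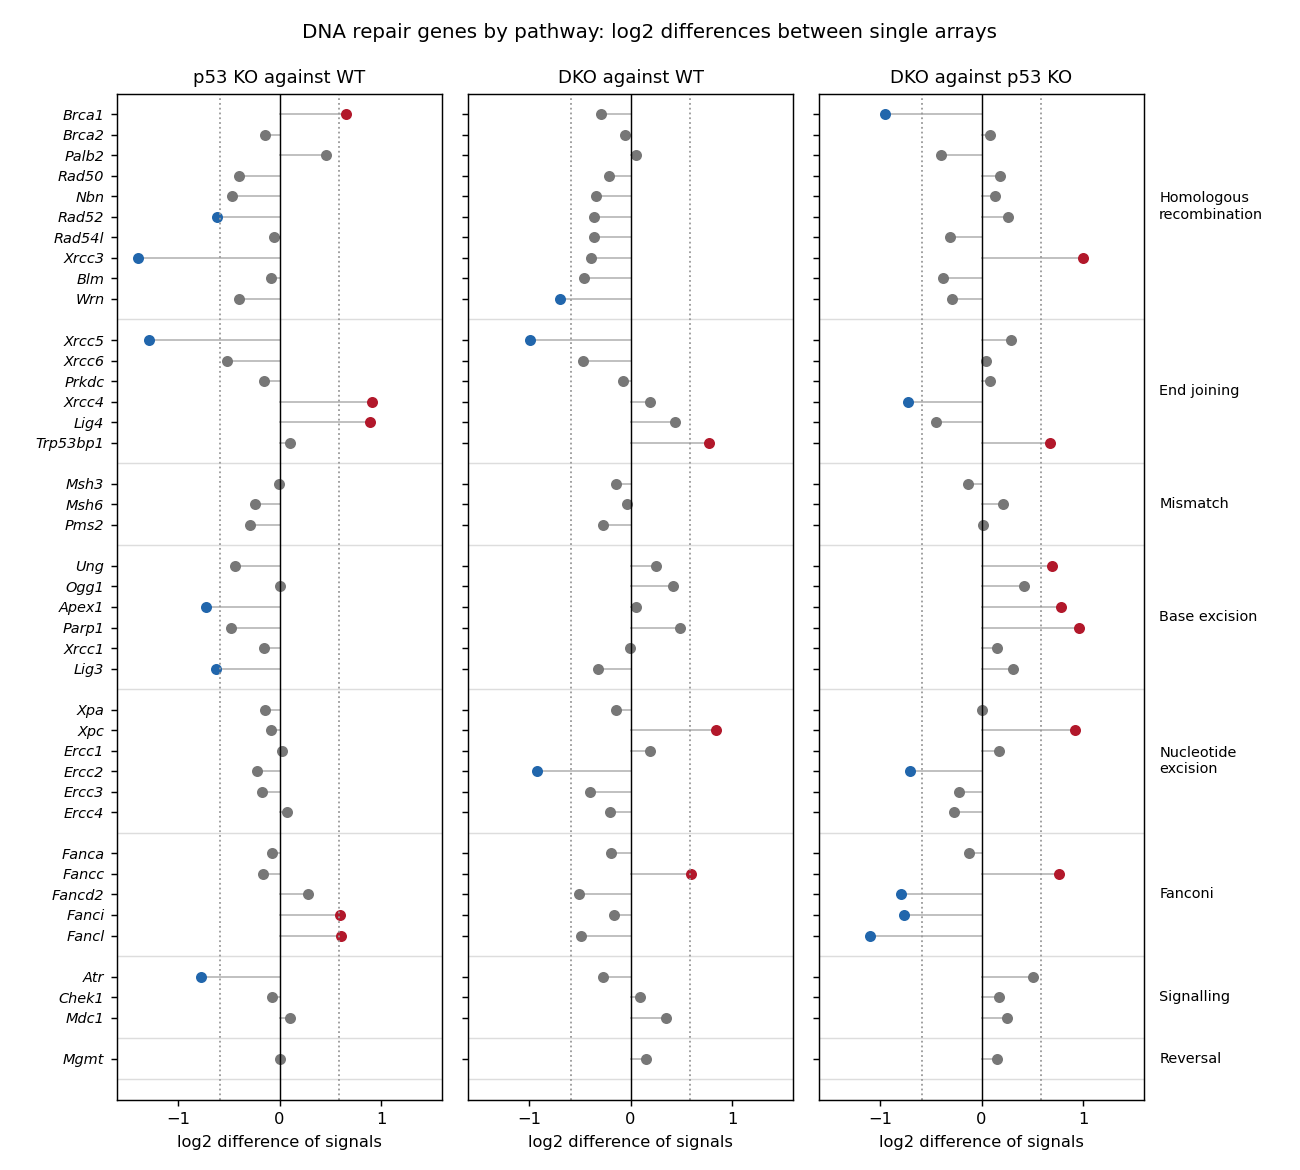
Each point is the log2 difference of 1 repair gene between a pair of arrays, by pathway (rows) and comparison (panels). Dotted lines mark 1.5-fold, and red and blue points lie beyond them on the higher and lower side. Of 40 genes, 19 lie beyond the lines in at least 1 panel, among them Xrcc5 at -1.28 and -0.99 in the first and second panels.

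Homologous recombination had 10 measured genes. By their brightest probe sets 8 of them had their highest signal on the WT array, where 28.9% of all measured genes did. The pathway median was -0.27 for p53 KO and -0.35 for DKO, each against WT, with 8 and 9 of 10 genes lower. When each gene was averaged over its probe sets these medians were smaller, -0.17 and -0.10. For DKO against WT all 10 were lower with quantile normalization or cyclic loess, and 7 of the 9 that have a unique probe set were lower by it. A 1.5-fold difference from WT was reached on the lower side by only 2 of the 10 for p53 KO and 1 for DKO. Among 19 other recombination genes, from the wider list described further on, 7 were highest on WT and 8 on p53 KO. These 19 did not share the lower p53 KO signal, with a median of 0.03 against WT, 10 higher and 8 lower. Their median for DKO against WT was -0.23, with 5 higher and 13 lower.

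Xrcc3, a paralogue of the recombinase that helps load and steady its filament, had signals of 618 on WT, 236 on p53 KO and 472 on DKO. The p53 KO array was thus low and the other arrays were nearer each other, with differences of -1.39 for p53 KO against WT (2.62-fold), -0.39 for DKO against WT and, between the p53-null arrays, 1.0 higher on DKO. Its other probe set read 240, 147 and 279, lower on p53 KO in the same way but with DKO above WT. The brighter probe set is of a design class that may also match other transcripts. The unique probe set alone gives -0.71 for p53 KO against WT.

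Brca1, which steers broken ends toward recombination and stalls the cell cycle at damage, ran the other way at 1593 on WT, 2503 on p53 KO and 1298 on DKO. The p53 KO array was highest and the DKO array lowest, with 0.65 for p53 KO against WT, and DKO at -0.95 against p53 KO. Its measured further probe sets read 164, 221 and 156 in one case and 89.3, 172 and 61.8 in the other, each highest on p53 KO. Palb2, the bridge between Brca1 and Brca2, had signals of 262 on WT, 359 on p53 KO and 271 on DKO and was likewise highest on p53 KO. Brca2 itself, which delivers the recombinase, stayed level at 1172 on WT, 1063 on p53 KO and 1128 on DKO.

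Wrn, the helicase lost in Werner syndrome, declined across the arrays from 2001 on WT, 1513 on p53 KO and 1233 on DKO. It was -0.70 for DKO against WT, and its other measured probe set read 636, 356 and 222, a larger difference of -1.52. Blm, the related helicase lost in Bloom syndrome, had signals of 3350.3 on WT, 3169.6 on p53 KO and 2433 on DKO and was lowest on DKO too, at -0.46. Rad52, an annealing factor, had signals of 395 on WT, 257 on p53 KO and 307 on DKO, with -0.62 for p53 KO against WT, and its weaker probe set at 149, 115 and 170 was also lowest on p53 KO. The break-sensing pair Rad50 and Nbn were highest on WT, with differences for p53 KO against WT of -0.40 and -0.47. Rad54l, the translocase that moves the filament, was at -0.05 and -0.36 for p53 KO and DKO against WT. Its further measured probe sets read 1041, 1101 and 967 in one case and 695, 904 and 714 in the other. These were highest on p53 KO, at 0.08 and 0.38 against WT, so the readings of Rad54l disagree.

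**Figure D2:**
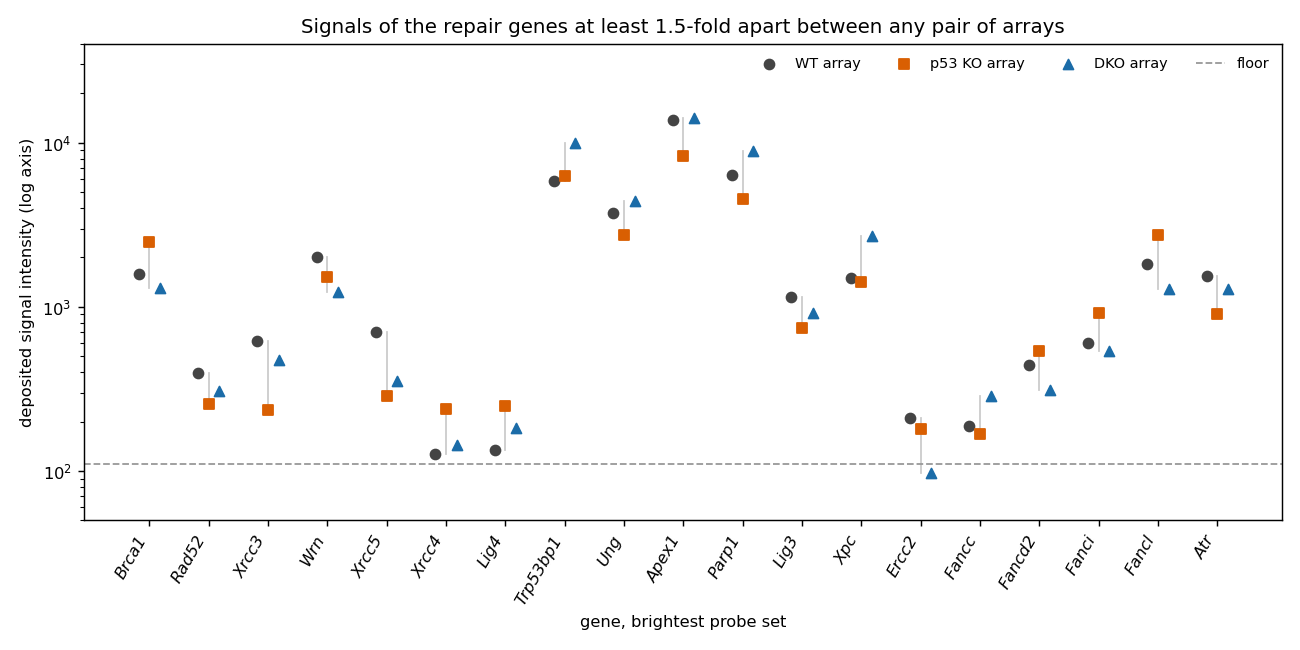
Deposited signal intensities on a log axis for the 19 repair genes at least 1.5-fold apart between any pair of arrays; circles, squares and triangles are the single WT, p53 KO and DKO arrays, and the dashed line is the floor at 110.4. Brca1, Fanci, Fancl and Fancd2 are highest on p53 KO and lowest on DKO, whereas Apex1, Parp1, Ung, Lig3, Xrcc3, Rad52 and Atr are lowest on p53 KO.

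End joining genes differed in direction. For the Ku heterodimer, which caps broken ends and recruits the kinase Prkdc, signals of the subunit genes were lower on both p53-null arrays. Its larger subunit gene Xrcc5 had signals of 700.3 on WT, 288 on p53 KO and 352 on DKO, which is -1.28 for p53 KO against WT (2.43-fold) and -0.99 for DKO against WT (1.99-fold). Both arrays without p53 read about alike, 0.29 apart. Xrcc5 has a single probe set here, so no second reading exists. The partner subunit gene Xrcc6 had signals of 2887 on WT, 2015 on p53 KO and 2084 on DKO, lower by less than 1.5-fold at -0.52 and -0.47. Prkdc was level at 788 on WT, 707 on p53 KO and 748 on DKO.

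Genes of the ligation step read in the opposite direction by their brightest probe sets. Lig4, the ligase of end joining, had signals of 134 on WT, 248 on p53 KO and 182 on DKO, and its scaffold Xrcc4 had 127 on WT, 238 on p53 KO and 144 on DKO. Both were weakest on WT, not far over the floor, and highest on p53 KO, at 0.89 and 0.91 for p53 KO against WT. The weaker probe set of Xrcc4 did not share this, at 120, 121 and 206. Trp53bp1, the chromatin protein that shields ends from resection and favours end joining, was highest on DKO at 5832 on WT, 6256 on p53 KO and 9993 on DKO. DKO was 0.78 over WT and 0.68 over p53 KO. Its 3 further measured probe sets were each highest on DKO as well, the brightest of them at 1031, 628 and 1364. That probe set put p53 KO under WT at -0.72, where the brightest of the gene gave 0.10.

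Mismatch repair genes were all 3 within 1.5-fold in each comparison by their brightest probe sets. Msh6, the subunit that finds single-base mismatches, had signals of 3619.6 on WT, 3054 on p53 KO and 3531 on DKO. Its counterpart for larger loops, Msh3, had 659 on WT, 656 on p53 KO and 598 on DKO, and the endonuclease subunit gene Pms2 had 532 on WT, 435 on p53 KO and 440.0 on DKO. The widest of these differences was -0.29, for Pms2 on p53 KO against WT. Both weaker Pms2 probe sets pointed upward there, at 0.17 and 0.23. One of them, at 196, 229 and 334, was past 1.5-fold for DKO against WT at 0.77, where the brightest gave -0.27, so the readings of Pms2 disagree.

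Of the 6 base excision and single-strand break genes, 5 had their lowest signal on p53 KO, where 34.7% of all measured genes did. All 6 were higher on DKO than on p53 KO, 5 of 6 with cyclic loess. The pathway median was -0.46 for p53 KO against WT, while DKO against p53 KO gave 0.56, beside all-gene medians of 0 and 0.11. Averaging each gene's probe sets moved the first median to -0.27, and the second was 0.37 over the 4 genes that have a unique probe set. The 13 other base excision genes of the wider list, described further on, were divided: 6 were lowest on p53 KO, and 7 were higher and 6 lower on DKO than on p53 KO.

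Apex1, the endonuclease that cuts the backbone at a base-free site, had signals of 13679.7 on WT, 8297 on p53 KO and 14242 on DKO. It was 1.65-fold lower on p53 KO than on WT (-0.72) and 1.72-fold higher on DKO than on p53 KO (0.78). Both further probe sets were lowest on p53 KO, one at 4422, 2620 and 3958 and the other at 12099, 7408 and 10816, with DKO slightly under WT in these. The dip on p53 KO was thus present in 3 of 3 probe sets.

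Parp1, the sensor that marks strand breaks with ADP-ribose chains, read 6339.9 on WT, 4566 on p53 KO and 8892 on DKO, which is 0.96 for DKO against p53 KO and 0.49 for DKO against WT. Its further probe sets did not share the height on DKO: those at 3265, 2619 and 2813 and at 2784, 1954 and 2412 put DKO under WT, at -0.21 in both. All 3 of these bright probe sets were lowest on p53 KO. The gain of Parp1 signal on DKO over WT therefore rests on its brightest probe set and a weak one at 207, 244 and 362. With its unique probe set, DKO against p53 KO is 0.10 in place of 0.96.

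Lig3, the ligase that partners Xrcc1 at the final step, had signals of 1150.3 on WT, 745 on p53 KO and 923 on DKO, or -0.63 for p53 KO against WT. A further probe set read 666, 396 and 593, again lowest on p53 KO. Ung, the glycosylase that removes uracil, had signals of 3724 on WT, 2742 on p53 KO and 4442 on DKO, with 0.70 for DKO against p53 KO. Scaffold gene Xrcc1 stayed within 0.16 of WT on both arrays. Ogg1, which removes oxidised guanine, was near the floor at 90.7 on WT, 108 on p53 KO and 148 on DKO.

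The 6 nucleotide excision genes had medians of -0.11 for p53 KO against WT and -0.17 for DKO against WT, with 4 of 6 lower in each. None was 1.5-fold apart between p53 KO and WT. Xpc, which recognises the distorted helix, stood out at 1509 on WT, 1425 on p53 KO and 2702 on DKO. DKO was the high array, at 0.84 against WT and 0.92 against p53 KO, and the other arrays were only 0.08 apart. Xpc is known as a p53 target in human cells. Ercc2, a helicase of the TFIIH complex that opens the helix, had signals of 209 on WT, 179 on p53 KO and 96.6 on DKO, so DKO lay under the floor and was lower than WT by at least 0.92 on the log2 scale and lower than p53 KO by at least 0.70. A weaker Ercc2 probe set read 127, 111 and 106, with a smaller difference in the same direction. The other helicase of that complex, Ercc3, had 866 on WT, 766 on p53 KO and 656 on DKO, at -0.40 for DKO against WT. Ercc1 and Ercc4, the nuclease pair that cuts on one side of the lesion, were within 0.27 in every comparison by their brightest probe sets. A second Ercc1 probe set, at 517, 398 and 389, gave -0.41 for DKO against WT. The damage verifier Xpa was near the floor.

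Of the 5 Fanconi genes, 3 were highest on p53 KO and lowest on DKO. Counted apart, 28.9% of all measured genes were highest on p53 KO and 23.0% were lowest on DKO. The pathway median for DKO against p53 KO was -0.76 beside 0.11 over all measured genes, and -0.33 when each gene's probe sets were averaged. Fancl, the ubiquitin ligase of the pathway, had signals of 1816 on WT, 2759 on p53 KO and 1292 on DKO. Fanci and Fancd2, the pair of proteins that this ligase modifies and that clamp onto DNA at crosslinks, had 604 on WT, 914 on p53 KO and 539 on DKO and 445 on WT, 540.0 on p53 KO and 312 on DKO. These 3 had the order of Brca1. The other probe sets of Fancl and Fanci lay under the floor on all 3 arrays, so their orders have no second reading. For DKO against p53 KO the differences were -1.09 for Fancl (2.14-fold), -0.76 for Fanci and -0.79 for Fancd2.

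Against WT, Fancl and Fanci were higher on p53 KO at 0.60 each, just past 1.5-fold, and Fancd2 was at 0.28. A second Fancd2 probe set read 256, 325 and 226, which repeats the order, and another at 135, 105 and 85.1 was highest on WT. Fanca, a member of the core complex, stayed level at 1006 on WT, 958 on p53 KO and 881 on DKO. Fancc, another core member, ran the opposite way at 188 on WT, 168 on p53 KO and 285 on DKO, with 0.76 for DKO against p53 KO and 0.60 against WT. One of its further probe sets shared this direction weakly (0.36) and the other did not (-0.22).

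Promoter windows of 5 genes are shown to set members of the contrasting patterns side by side: Brca1, Fanci and Fancl, highest on p53 KO, and Xrcc3 and Xrcc5, lowest on p53 KO. They are RefSeq sequences of GRCm38.p6 that run 5′ to 3′ on the gene's strand from 250 bases before the start of the gene to 50 after it. Capitals mark CCAAT or its reverse complement ATTGG, the only searched motif present in these 5. They lie at chr11:101551906-101552205 on the minus strand for Brca1, chr7:79392088-79392387 on the plus strand for Fanci, chr11:26386834-26387133 on the plus strand for Fancl, chr12:111813830-111814129 on the minus strand for Xrcc3 and chr1:72307171-72307470 on the plus strand for Xrcc5.
Brca1: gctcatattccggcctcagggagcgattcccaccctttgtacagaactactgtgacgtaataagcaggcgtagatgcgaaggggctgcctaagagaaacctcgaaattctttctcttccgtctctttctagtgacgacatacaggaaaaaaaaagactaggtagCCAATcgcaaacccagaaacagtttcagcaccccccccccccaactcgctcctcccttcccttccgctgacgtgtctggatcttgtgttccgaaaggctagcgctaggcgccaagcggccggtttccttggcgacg
Fanci: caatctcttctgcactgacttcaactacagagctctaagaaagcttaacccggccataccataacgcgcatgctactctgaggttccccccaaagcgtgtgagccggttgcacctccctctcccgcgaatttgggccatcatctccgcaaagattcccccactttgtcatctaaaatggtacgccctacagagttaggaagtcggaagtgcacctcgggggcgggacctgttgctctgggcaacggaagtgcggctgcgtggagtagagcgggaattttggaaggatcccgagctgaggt
Fancl: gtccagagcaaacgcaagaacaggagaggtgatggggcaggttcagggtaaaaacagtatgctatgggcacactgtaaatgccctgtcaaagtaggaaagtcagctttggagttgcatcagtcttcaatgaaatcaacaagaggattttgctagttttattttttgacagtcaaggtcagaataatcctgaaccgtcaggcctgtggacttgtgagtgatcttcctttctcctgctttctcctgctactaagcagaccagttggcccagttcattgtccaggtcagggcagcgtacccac
Xrcc3: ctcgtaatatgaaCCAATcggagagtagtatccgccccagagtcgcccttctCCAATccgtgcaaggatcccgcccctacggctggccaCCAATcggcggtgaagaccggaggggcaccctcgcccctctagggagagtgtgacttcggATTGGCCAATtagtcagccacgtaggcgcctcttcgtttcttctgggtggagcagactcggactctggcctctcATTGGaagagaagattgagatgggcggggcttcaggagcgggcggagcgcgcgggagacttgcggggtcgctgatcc
Xrcc5: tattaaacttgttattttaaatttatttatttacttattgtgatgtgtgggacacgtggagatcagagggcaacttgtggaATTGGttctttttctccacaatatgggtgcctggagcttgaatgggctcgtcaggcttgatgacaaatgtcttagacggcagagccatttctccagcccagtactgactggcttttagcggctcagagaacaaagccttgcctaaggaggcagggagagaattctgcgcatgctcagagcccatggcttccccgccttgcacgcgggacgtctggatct

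CCAAT letters, which nuclear factor Y reads, occurred 6 times in the Xrcc3 window, 2 of them back to back, and once each in those of Brca1 and Xrcc5. Windows were given for 33 of the 41 genes. On both strands, 18 of the 33 (54.5%) held CCAAT in at least 1 window, where 41.1% of 27025 genes did. An E2F sequence (TTTCCCGC, TTTGGCGC or TTTCGCGC) was present in 5 of 33, or 15.2%, where 2.12% of all genes had one. Those 5 were Brca2, Xrcc6, Msh3, Msh6 and Mdc1, and 0 of them were 1.5-fold apart in any comparison. The ETS sequence CCGGAAGT was in 4 (12.1%, all genes 4.31%), namely Palb2, Lig4, Ogg1 and Ercc1. The CHR element TTTGAA of mitotic genes was in 0 of 33, where 20.2% of all genes had it, and the NRF1 motif was in Lig4 alone (3.03%, all genes 1.07%). The decamer that p53 reads was in the window of Fanca alone, where 9.55% of all genes had one. The E2F matches on the 2 strands of the Msh3 window overlap, and a match of letters is not a bound site.

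Among damage signalling genes, Atr, the kinase that answers to exposed single-stranded DNA at stalled forks, had signals of 1540.2 on WT, 899 on p53 KO and 1279 on DKO. It was -0.78 for p53 KO against WT (1.71-fold), and both further measured probe sets agreed in direction, at 377, 132 and 485 and at 356, 210 and 375. In these DKO was slightly over WT, whereas the brightest put it slightly under. Its effector kinase Chek1 was level at 3799 on WT, 3605 on p53 KO and 4057 on DKO, and Mdc1, the scaffold at marked chromatin, had 954 on WT, 1023 on p53 KO and 1219 on DKO. Mgmt, which strips alkyl groups from guanine, was at the floor at 109 on WT, 95.6 on p53 KO and 123 on DKO.

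Further probe sets of the same genes gave the only second readings within each array. For p53 KO against WT, 7 genes past 1.5-fold had 11 measured further probe sets, and 11 of 11 had the same sign, 7 of them past 1.5-fold too. One of the 11 is the weaker Xrcc4 probe set, whose difference was only 0.016. For DKO against WT the figures were 7 of 7 in 4 genes, with 2 past 1.5-fold. For DKO against p53 KO, 14 of 17 in 9 genes had the same sign, 4 past 1.5-fold, and 2 were opposite, in Xrcc4 and Fancc. Across all genes past 1.5-fold, 78.2%, 76.9% and 79.7% of further probe sets had the same sign in the 3 comparisons, and 43.1%, 37.4% and 40.5% had it and were past 1.5-fold too. The 4 of 17 for DKO against p53 KO is a smaller share than that of all genes. A further probe set shares the RNA sample and is no replicate of it.

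**Figure D3:**
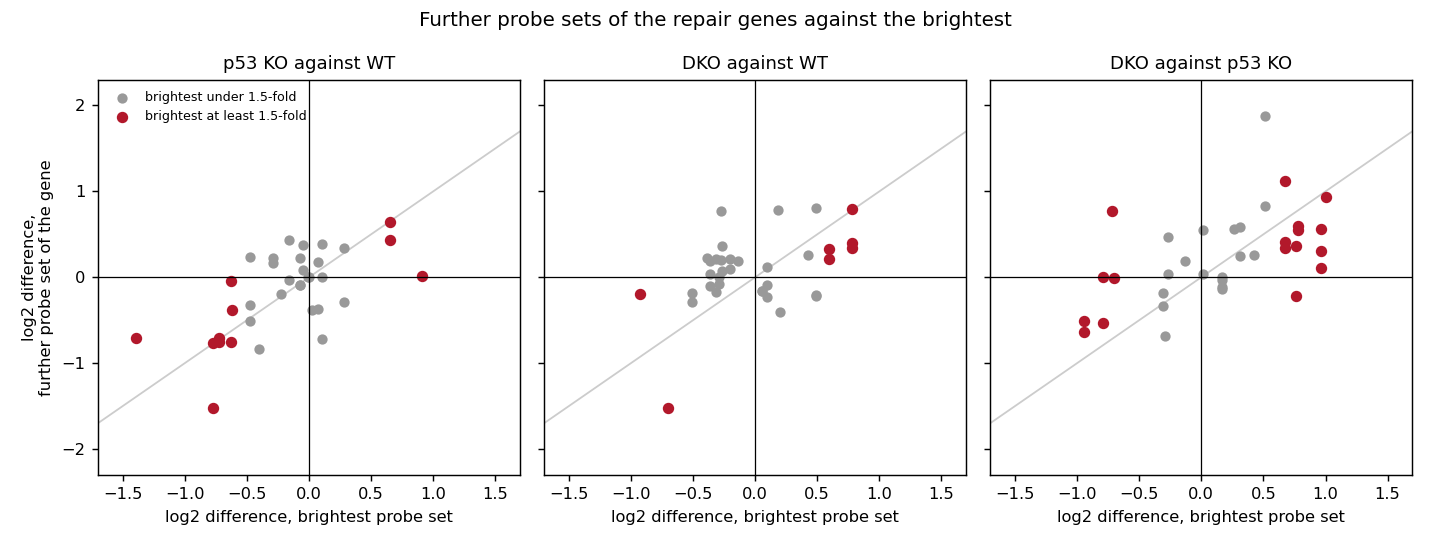
Log2 difference of each measured further probe set of a repair gene (vertical) against that of the gene's brightest probe set (horizontal), 35 probe sets of 20 genes, with 1 panel per comparison. Red points belong to genes past 1.5-fold by the brightest probe set; in the first panel 11 of 11 lie on the same side of 0 on both axes, and in the rightmost 14 of 17 do.

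A wider list of 94 other repair genes, of which 86 were named and 84 measured, extends each pathway. For p53 KO against WT, 7 of the 84 (8.33%) were at least 1.5-fold higher and 15 (17.9%) lower, beside 15.4% and 12.5% of all measured genes, with a median of -0.20. For DKO against WT, 4 (4.76%) were higher and 9 (10.7%) lower, beside 17.1% and 9.52%. Between the p53-null arrays, 8 (9.52%) were higher on DKO and 9 (10.7%) lower, beside 17.0% and 12.2%. The share of higher genes was thus under that of all genes in the 3 comparisons, on the deposited scale.

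Nucleotide excision supplied 7 of the 15 genes lower on p53 KO than on WT. Of its 13 measured genes in the wider list, 12 were lower there, where 47.0% of all measured genes were. Their median was -0.60 (-0.38 when each gene's probe sets were averaged). The lowest signal was on p53 KO for 10 of them, as for 34.7% of all measured genes. For DKO against p53 KO 11 of the 13 were higher (all genes 58.8%), with a median of 0.49 beside 0.11. The 6 nucleotide excision genes described earlier did not share this. Only 1 of those was lowest on p53 KO, and their median for p53 KO against WT was -0.11. The damage sensor genes Ddb1 and Ddb2 were at -0.60 and -0.56 for p53 KO against WT, and Ercc5, a nuclease that cuts beside the lesion, was at -0.76. In the TFIIH complex Gtf2h1 was at -0.63, Gtf2h4 at -0.71 and the cyclin gene Ccnh at -0.75. Gtf2h4 had signals of 1998 on WT, 1222 on p53 KO and 2381 on DKO and Ccnh had 12511 on WT, 7461 on p53 KO and 10844 on DKO, both lowest on p53 KO. The exception was Xab2, at 0.24.

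Also in this pathway, Cdk7, the kinase of TFIIH that also serves transcription, had signals of 1963 on WT, 854 on p53 KO and 849 on DKO, -1.20 and -1.21 against WT on the p53 KO and DKO arrays. Rad23b, which stabilises Xpc, had 2554 on WT, 1381 on p53 KO and 1141 on DKO, at -0.89 and -1.16. The 8 measured Fanconi genes of the wider list were mixed, with 4 lowest on p53 KO and 3 highest there. The core gene Fance was lower on both p53-null arrays at 307 on WT, 113 on p53 KO and 111 on DKO, and Fancm, the pathway's DNA translocase, was lower on DKO alone at 279 on WT, 299 on p53 KO and 138 on DKO. In recombination, Rad51c was higher on both at 184 on WT, 444 on p53 KO and 351 on DKO, the Holliday junction nuclease gene Gen1 was highest on p53 KO at 194 on WT, 364 on p53 KO and 171 on DKO, and Top3a, the partner of Blm, was lowest there at 180.5 on WT, 111 on p53 KO and 230.5 on DKO. Cdk7, Rad23b, Fance, Fancm, Rad51c and Gen1 have 5, 4, 2, 3, 2 and 2 probe sets, and only the brightest is given here. With the mean of all probe sets their 2-fold differences were lost.

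Clspn, the adaptor through which Atr activates Chek1, had signals of 1831 on WT, 2598 on p53 KO and 1105 on DKO, the order seen for Brca1 and Fancl. Its 2-fold difference for DKO against p53 KO was lost with the mean of its 2 probe sets. Of 13 base excision genes, 3 were at least 1.5-fold higher and 3 lower on p53 KO than on WT. The glycosylase gene Nthl1 was lowest on p53 KO at 232 on WT, 87.8 on p53 KO and 182 on DKO and was lower there than on WT by at least 1.07, and Aptx, which clears failed ligation ends, was at -0.94. Other glycosylase genes ran the opposite way. Neil1 had signals of 213 on WT, 423 on p53 KO and 257 on DKO and Neil3 had 332 on WT, 612 on p53 KO and 399.9 on DKO, at 0.99 and 0.88 for p53 KO against WT and at -0.72 and -0.61 for DKO against p53 KO. Mbd4 was at 0.84 for p53 KO against WT. Fen1, the flap nuclease, was -0.71 for DKO against p53 KO. Polm, an end-joining polymerase, read 190.3 on WT, 307 on p53 KO and 30.3 on DKO, so DKO was under the floor and lower than p53 KO by at least 1.48. Msh5, a meiotic relative of the mismatch genes, read 15.1 on WT, 303 on p53 KO and 811 on DKO and was thus higher on DKO than on WT by at least 2.88, and on p53 KO than on WT by at least 1.46. With the mean of its 2 probe sets Msh5 was no longer 2-fold higher for p53 KO against WT.

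Cell cycle and mature cell genes differed between the same arrays, and their part in the repair values was not tested. Of 21 measured genes of G2 and mitosis, 20 were higher on p53 KO than on WT (median 0.51) and 21 lower on DKO than on p53 KO (median -0.95). Their summed signal was 89765 on WT, 127908 on p53 KO and 68359 on DKO, which is the order of Brca1, Fancl, Fanci and Fancd2. The 20 S phase genes summed to 164537, 191696 and 145021, with medians of 0.09 and -0.53 in these comparisons.

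The 4 named LSK genes summed to 10088 on WT, 7005 on p53 KO and 16813 on DKO, but were split for p53 KO against WT, with 2 higher and 2 lower. Kit, given above, and Flt3 were lowest on p53 KO, Flt3 at 2387 on WT, 1492 on p53 KO and 4728 on DKO. Cd34 and Slamf1 were lowest on WT. Cd34 had signals of 2230 on WT, 2442 on p53 KO and 6633 on DKO, and Slamf1 had 475, 549 and 579.

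Mature cell lists differed on p53 KO as well. Summed signals on WT, p53 KO and DKO were 22491, 57284 and 23663 for 8 monocyte genes, 103952, 173500 and 71528 for 8 granulocyte genes, and 1657, 5804 and 2540 for 7 B cell genes. Megakaryocyte genes, 6 in number, summed to 3748, 11714 and 6680. Of these 29 genes, all reached the floor on every array except Itgb3 on WT. Erythroid genes, 10 in number, summed to 91157, 92014 and 22400, so they were low on DKO, and the globin gene Hba-a1 was below the floor on all 3. The similar sums on WT and p53 KO hide differences in both directions. Of the 9 measured, 3 were higher on p53 KO than on WT and 6 lower, from Alas2 at 2.68 to Car1 at -1.42. The p53 KO array was therefore the one richest in mature myeloid and B cell transcripts. Of the 40 repair genes, 19 had their lowest signal on p53 KO and 8 their highest, beside 34.7% and 28.9% of all measured genes. On WT 6 were lowest and 21 highest, beside 31.0% and 28.9%. On DKO 12 were lowest and 11 highest, beside 23.0% and 42.2%. A link between mature cell and repair signals was not tested.

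**Figure D4:**
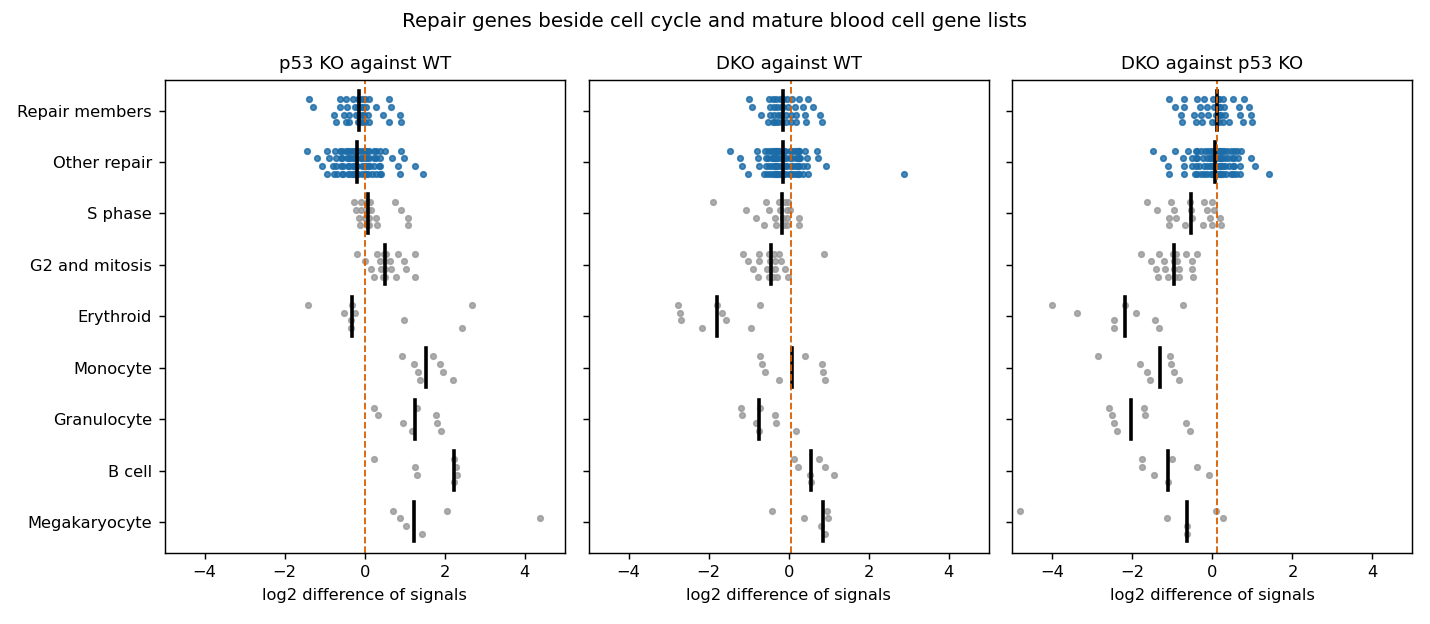
Log2 differences of single genes (points) and their medians (black bars) for the 40 repair genes, 84 other repair genes and the cell cycle and mature cell lists, with 1 panel per comparison; the dashed line is the median of all 12597 measured genes. Repair medians stay within 0.20 of 0, while genes of G2 and mitosis have medians of 0.51, -0.43 and -0.95 from left to right.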

How the data were processed

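Expression was measured on 3 Affymetrix arrays, 1 per genotype. The deposited values are linear signal intensities, made by the authors with GCOS and MAS5 per the submitters' processing notes, with no version stated. The 2% trimmed mean was 500 on each array, so the values already carry global scaling. Probe sets were named from the platform annotation, with 34754 symbols updated through the Entrez ID in RefSeq (GRCm38.p6). Of 45101 probe sets, 34958 named 1 gene, 932 several and 9211 none.

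Each gene was represented by its brightest single-gene probe set. Signals under the median of all signals (110.4) were raised to that floor and log2 was taken. A gene with 1 or more arrays at the floor or over it was called measured, which gave 12597. A difference from a value under the floor is a lower bound. Genes at least 1.5-fold or 2-fold apart were counted with no test, since 1 array per genotype gives none. The calculation was tested on simulated data. Further settings used limma 3.58.1 (cyclic loess, 3 iterations) and numpy 2.4.6.

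The repair genes and the lists were chosen with earlier results of these data known. All repair genes are named, those at least 1.5-fold apart with every value, and genes of the wider list when 2-fold apart. S100a8, the further probe sets and the wider list's other named genes were singled out after their values were seen.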

Additional observations from a re-analysis of the deposited data

How the results depend on the processing

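No paired analysis was possible because each genotype has 1 array. Rescaling to a common trimmed mean could move no count, since that mean was already 500 on each array. Of 30 differences of single repair genes past 1.5-fold, 29 kept their sign under every setting tried and 10 stayed past 1.5-fold under all. The exception in sign was Xrcc4 for DKO against p53 KO, at 0.024 with the mean of all probe sets. The rescaling, the other floors and the pseudocount keep the probe set and the order of its signals, so they could not reverse a sign. Only quantile normalization, cyclic loess, the mean of all probe sets or a change of probe set could do so. Medians of the 40 genes ranged from -0.16 to -0.08 for p53 KO against WT, from -0.21 to -0.05 for DKO against WT and from 0.02 to 0.11 for DKO against p53 KO. The wider list's median for DKO against p53 KO changed sign, to -0.02 with quantile normalization and -0.04 with cyclic loess.

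At 3-fold, 0 repair genes and 0 of the wider list were lower or higher in any comparison, apart from Msh5, higher for DKO against WT. For the 40 repair genes, the number 2-fold lower on DKO against WT was 2 with quantile normalization, 2 with cyclic loess and 1 with the lower floor (25th percentile). For p53 KO against WT, those 1.5-fold higher numbered 3 with the higher floor (75th percentile) and 1 with the mean of all probe sets. Those 2-fold lower numbered 0 with the higher floor and 1 with probe sets unique to a transcript. With that mean, 1 gene was 1.5-fold higher for DKO against WT, and 0 were 1.5-fold or 2-fold lower for DKO against p53 KO. With the higher floor 3 were 1.5-fold lower in that comparison. The gene 2-fold higher there, Xrcc3, was lost (0) with cyclic loess, the higher floor (log2 difference 0.074) and the pseudocount.

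For the wider list, 1.5-fold lower genes for DKO against WT numbered 14 with either normalization. For DKO against p53 KO, cyclic loess gave 4 at 1.5-fold and 1 at 2-fold higher. The lower floor gave 4, 3 and 4 genes 2-fold higher in the order in which the comparisons are given above, and 7 at 1.5-fold higher for DKO against WT. The pseudocount gave 4, 2 and 1 genes 2-fold higher. With the higher floor, p53 KO against WT had 0 higher and 9 lower at 1.5-fold and 0 and 1 at 2-fold. DKO against WT had 2 and 5, then 0 and 2, and DKO against p53 KO had 3 and 4, then 0 and 1. The mean of all probe sets gave 0 higher and 1 lower at 2-fold for p53 KO against WT. It gave 2 higher at 1.5-fold and 0 lower at 2-fold for DKO against WT. Between the p53-null arrays it gave 5 higher and 4 lower at 1.5-fold and 1 lower at 2-fold. Probe sets unique to a transcript gave 2 genes 2-fold lower for DKO against WT and 5 at 1.5-fold higher for DKO against p53 KO. A higher floor shortens differences of dim genes by construction. The mean of all probe sets also does so where a further probe set lies under the floor on all 3 arrays, since that one adds a difference of 0. Fancl, with such a probe set, went from -1.09 to -0.55 for DKO against p53 KO. For the remaining settings the cause was not tested. Signals near the floor limit Xrcc4, Lig4, Ercc2, Ogg1, Xpa and Mgmt. Fancc was also dim, at 188 on WT, 168 on p53 KO and 285 on DKO. It was past 1.5-fold in 3 of 7 other settings for DKO against WT and in 4 of 7 for DKO against p53 KO.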
